A study of Drosophila melanogaster with 2 samples.

Results

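The proteasome subunit genes of Drosophila melanogaster were examined for promoter binding of the homeodomain protein B-H2, tagged at its C terminus with green fluorescent protein (GFP). They were the protein-coding genes whose symbols begin with Prosalpha, Prosbeta, Rpn or Rpt and a number, 48 of 13968 protein-coding genes on the chromosome arms. Of the 48, 32 were main subunits, and 16 carried a T or R after the number, the naming used for testis-type paralogs. Chromatin immunoprecipitation with sequencing (ChIP-seq) had been done on whole embryos of mixed sex, 6 to 22 hours old, from a transgenic line that stably makes the fusion protein. There was 1 group with 2 biological replicates, numbered 1 and 3 in the labels, and no second condition. Both replicates and their pool were called against the same control alignment. The antibody label names B-H2, but the free text of both samples describes an input control, so the labels conflict on what these libraries are. Whole embryos mix all tissues, so a peak cannot be placed in a cell type, and a peak in few cells cannot be told apart from a weak peak in many. The deposited lists held 30000 peaks for each replicate, 30000 for the pooled alignments, and the 4277 peaks left by the authors' filter on the irreproducible discovery rate (IDR), which weighs peak ranks across replicates. The IDR peaks were those of highest signal in the pooled list, from 112 upwards. Signal is the authors' peak caller value, read here only within a list. Read depth is unknown.

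The proteasome is the protease that degrades ubiquitin-tagged proteins. Its core particle is a barrel of alpha subunits, which gate the entrance, and beta subunits, which include the protease active sites. The regulatory particle that caps it has a base with a ring of ATPases (Rpt) that unfold substrates, ubiquitin receptors (Rpn10, Rpn13) and a lid whose subunit Rpn11 removes ubiquitin. Drosophila also has duplicate subunit genes, many of which are known to be active mainly in male germ cells. All 16 paralogs, Prosalpha1R among them, were grouped by the T or R suffix alone. A gene was counted as having a promoter peak when a peak summit lay within 1 kb of one of its annotated transcription start sites (TSSs).

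Sequences of 101 bases centred on the pooled summit, read on the strand of the gene from the dm6 reference, show what lay under the strongest and the weakest of these promoter peaks. Capitals mark matches, on either strand, to 1 of 10 short sites searched, which are listed with the site counts. The first 6 windows belong to the strongest peaks of main subunits on arms 2L, 3L, 3R and X, and the last 3 to the weakest.
Rpt5 (chr3R:23752801-23752901, plus strand): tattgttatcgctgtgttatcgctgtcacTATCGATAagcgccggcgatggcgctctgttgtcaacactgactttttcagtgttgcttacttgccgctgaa
Rpn2 (chr3R:29153416-29153516, plus strand): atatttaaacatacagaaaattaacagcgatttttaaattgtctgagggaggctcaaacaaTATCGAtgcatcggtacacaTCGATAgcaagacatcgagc
Rpn11 (chr2L:5059867-5059967, minus strand): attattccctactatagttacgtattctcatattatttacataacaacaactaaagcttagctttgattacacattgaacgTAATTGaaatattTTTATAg
Prosalpha4 (chrX:16275899-16275999, plus strand): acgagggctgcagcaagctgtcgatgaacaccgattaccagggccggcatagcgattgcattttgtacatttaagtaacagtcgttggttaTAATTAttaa
Rpt2 (chr3R:23931491-23931591, minus strand): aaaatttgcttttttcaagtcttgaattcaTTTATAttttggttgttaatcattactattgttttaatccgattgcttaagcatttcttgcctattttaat
Rpn10 (chr3L:21536959-21537059, plus strand): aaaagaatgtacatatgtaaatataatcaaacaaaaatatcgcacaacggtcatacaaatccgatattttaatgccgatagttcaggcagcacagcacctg
Rpn9 (chr3R:23733236-23733336, minus strand): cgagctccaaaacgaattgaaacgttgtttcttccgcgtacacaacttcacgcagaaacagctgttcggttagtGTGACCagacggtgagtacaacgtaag
Prosbeta3 (chr3R:9006175-9006275, minus strand): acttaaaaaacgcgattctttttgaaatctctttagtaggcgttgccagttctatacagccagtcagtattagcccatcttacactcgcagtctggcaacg
Rpn7 (chr3R:22462069-22462169, minus strand): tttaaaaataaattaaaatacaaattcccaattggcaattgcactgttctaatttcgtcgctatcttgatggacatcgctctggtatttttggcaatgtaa
The windows of Rpt5 and Rpn2 held TATCGA on both strands, overlapping at Rpt5 and at separate positions at Rpn2. That of Rpn11 held TAATTG and TATAAA, that of Prosalpha4 held TAATTA, and that of Rpt2 held TATAAA. The weak Rpn9 window held GGTCAC. The Rpn10 window, with a signal of 160, held none of the 10 sites, and neither did the weak Prosbeta3 and Rpn7 windows.

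IDR promoter peaks were found at main subunits and at none of the testis-type paralogs. An IDR summit lay within 1 kb of a TSS at 16 of the 32 main subunits (50%, exact 95% interval 31.9 to 68.1) and at 0 of the 16 paralogs (exact upper limit 20.6%). Over all protein-coding genes the share was 26.9%. Over the whole pooled list, which includes weak peaks, 24 of 32 main subunits had a summit (75%, interval 56.6 to 88.5) and 1 of 16 paralogs (6.25%, interval 0.158 to 30.2), beside 57.3% of all genes, a share that lies inside the interval of the main subunits. These shares are described without a test, since genes are not replicates and the genes were chosen by name with earlier results known.

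**Figure D1:**
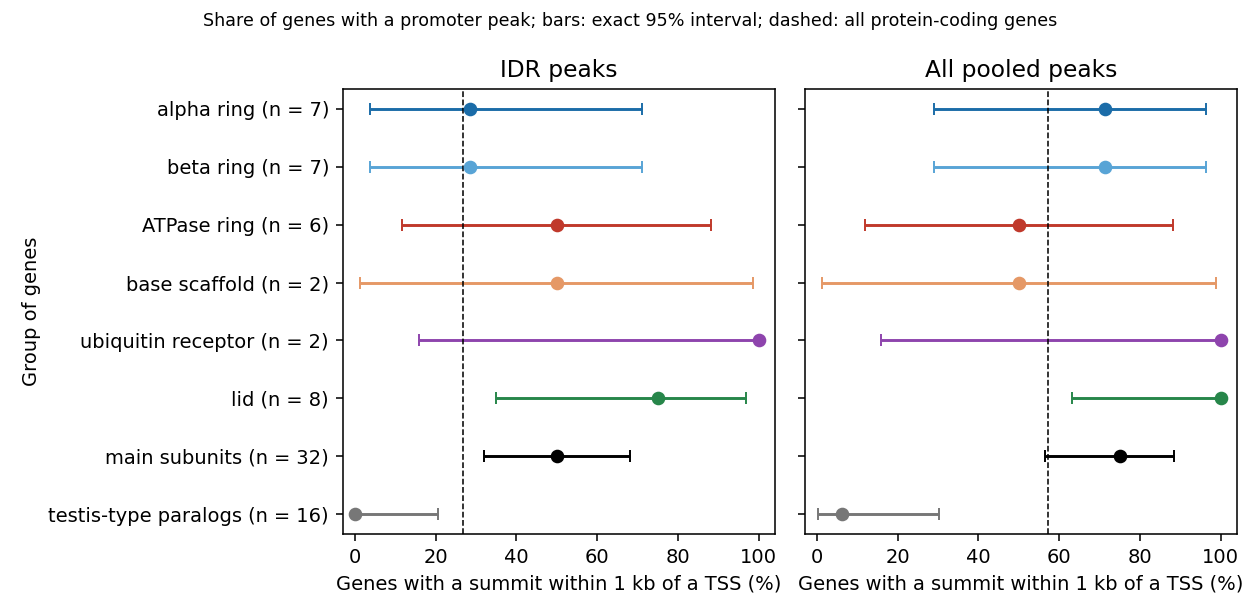
Share of genes, in percent, with a peak summit within 1 kb of a TSS, for IDR peaks (left) and all pooled peaks (right), by group of proteasome genes. Points are shares with exact 95% intervals, and the dashed line is the share of all protein-coding genes (26.9% and 57.3%), which lies below the point of the main subunits and above that of the testis-type paralogs in both panels.

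The IDR peaks of main subunits were in the middle of the list by signal. The median signal of the strongest IDR promoter peak was 171 over the 16 members (range 113 to 273) and 191 over the 3761 genes with such a peak, whose range ran to 3978. The highest rank reached in the IDR list was 816, at Rpn13, and the lowest was 4208, at Prosalpha7. An IDR summit was at 12 of 18 genes of the regulatory particle (66.7%, interval 41.0 to 86.7) and at 4 of 14 of the core particle (28.6%, interval 8.39 to 58.1), the latter near the 26.9% of all genes. The pooled list had a summit at 14 of 18 (77.8%) and at 10 of 14 (71.4%), beside 57.3% of all genes. The difference between the particles was not tested.

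**Figure D2:**
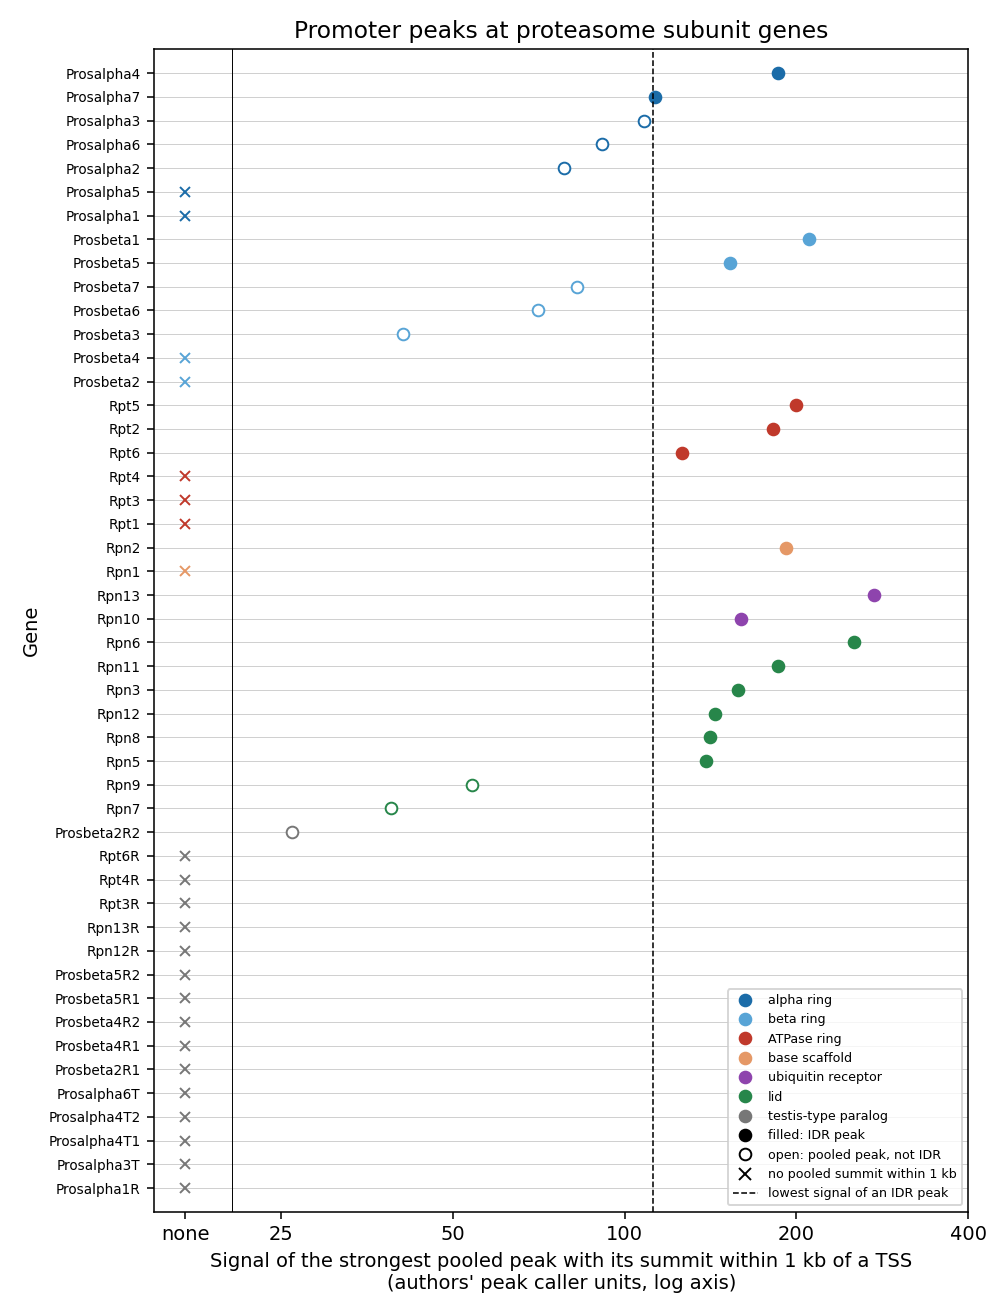
Signal of the strongest pooled promoter peak (log axis, authors' peak caller units) for each of the 48 genes, coloured by place in the proteasome. Filled points are IDR peaks, all at or above the lowest IDR signal of 112 (dashed line), open points are pooled peaks below it, and crosses are genes without a pooled summit within 1 kb, which include 15 of the 16 testis-type paralogs.

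The alpha ring, which opens or closes the core to substrates, had an IDR summit at 2 of 7 genes (28.6%), near the 26.9% of all genes. The Prosalpha4 peak (FBgn0004066, X, 16275899 to 16276045) had a signal of 186 and lay 321 bp upstream of the TSS. Its strongest promoter summit ranked 2022 in replicate 1 (signal 82.4) and 1816 in replicate 3 (signal 103). Both replicates thus held this peak at similar rank. The Prosalpha7 peak (FBgn0023175, 2R, 9847716 to 9848099), 72 bp upstream, had a signal of 113, close to the lowest IDR value. In replicate 3 it ranked 4782 (signal 59.7), and in replicate 1 no peak overlapped it. It was the IDR promoter peak of the set that did not recur. Prosalpha3, with a pooled signal of 108 at 43 bp from the TSS, fell just under the IDR list and ranked 4103 in replicate 1 (signal 56.4) and 5422 in replicate 3 (signal 55.2). Prosalpha7 and Prosalpha3 therefore lie on either side of the threshold with nearly equal signal. Prosalpha6 had a pooled signal of 91.2 (replicate 1 signal 52.3, rank 4664, and replicate 3 signal 45.1, rank 7374) at a summit 510 bp upstream, in the 5' UTR of Npc1a, a sterol transport gene. Prosalpha2 had a signal of 78.2, 214 bp upstream, and ranked 9015 in replicate 1 (signal 34.3) but 3784 in replicate 3 (signal 68.8). Prosalpha1 and Prosalpha5 had no summit within 1 kb in any list, and their nearest pooled summits were 3406 and 4736 bp away. Prosalpha1 has a tandem copy, Prosalpha1R, with 98.8% identical bases over the gene body and 89.3% over the 300 bases before the TSS. How the authors treated reads that fit both copies is not given in the sources used here, so the absence of peaks at this pair is uncertain.

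The beta ring, which carries the proteolytic sites, also had an IDR summit at 2 of 7 genes, again near the share of all genes. Prosbeta1 (FBgn0010590), the subunit with caspase-like activity, had a peak of signal 210 (2R, 16014686 to 16015069) 91 bp upstream of its TSS. It ranked 1586 in replicate 1 (signal 92.6) and 1414 in replicate 3 (signal 117). Prosbeta5, the subunit with chymotrypsin-like activity, had a peak of signal 153 (2R, 10819766 to 10820149) 20 bp upstream, with ranks 2257 and 3088. Of the catalytic subunits these 2 were in the IDR list, while Prosbeta2, with trypsin-like activity, had no summit within 1 kb in any list and its nearest pooled summit 6078 bp away. The other beta genes had weaker peaks or none. Prosbeta7 had a pooled signal of 82.5 at 72 bp upstream, with signals of 31.5 in replicate 1 (rank 10288) and 41.6 in replicate 3 (rank 8310). Prosbeta6 had a pooled signal of 70.5 at 30 bp upstream, with signals of 25.8 in replicate 1 (rank 13764) and 37.6 in replicate 3 (rank 9556). Both genes were thus in every list but the IDR set. The pooled Prosbeta3 summit lay 1 bp from the TSS with a signal of 40.9. In replicate 3 the summit lay 169 bp upstream (signal 34.0, rank 10933), and replicate 1 had none within 1 kb. Prosbeta4 had a summit in replicate 3 alone (signal 23.9, rank 17016) and its nearest pooled summit 2448 bp away.

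The ATPase ring of the base had an IDR summit at 3 of 6 genes (50%, interval 11.8 to 88.2, beside 26.9% of all genes). The same 3 genes had a pooled summit (50%, beside 57.3% of all genes), and the other 3 had none within 1 kb. Rpt5 (FBgn0028684) had a peak of signal 200 (3R, 23752659 to 23753042) 25 bp upstream of the TSS, with ranks 1551 in replicate 1 (signal 93.6) and 1620 in replicate 3 (signal 110). Rpt2 (FBgn0015282) had a peak of signal 182 (3R, 23931349 to 23931732) 17 bp downstream, in its 5' UTR, with ranks 2217 (signal 78.9) and 2037 (signal 97.2). These ATPase genes had near-equal ranks in both replicates. Rpt6 had a peak of signal 126 (X, 21315826 to 21316209) 34 bp upstream, which ranked 1986 in replicate 1 but 8570 in replicate 3. This was the widest gap between replicates among members in the IDR list that had a summit in both. Rpt1 had a summit 17 bp from the TSS in replicate 3 (rank 4537, signal 61.6), none within 1 kb in replicate 1 and its nearest pooled summit 1217 bp away. Rpt4 had a weak summit in replicate 1 alone (rank 26252) and its nearest pooled summit 3250 bp away. Rpt3 had none within 1 kb in any list, with the nearest pooled summit 11830 bp away.

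The scaffold and receptor subunits of the base differed among themselves. Rpn2 (FBgn0028692), a scaffold that also holds Rpn13, had a peak of signal 192 (3R, 29153274 to 29153657) 58 bp upstream, with ranks 2164 in replicate 1 (signal 79.8) and 2139 in replicate 3 (signal 94.5). Rpn1, the other large scaffold, had no summit within 1 kb in any list and its nearest pooled summit 4798 bp away. The strongest peak of all 48 genes was that of the ubiquitin receptor gene Rpn13 (FBgn0033886), with a signal of 273 (2R, 13960385 to 13960527), 121 bp upstream. It ranked 1014 in replicate 1 (signal 113) and 872 in replicate 3 (signal 150). The other receptor gene, Rpn10, had a peak of signal 160 (3L, 21536817 to 21537200) 9 bp downstream of a TSS, with ranks 2964 and 2434.

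The lid had an IDR summit at 6 of 8 genes (75%, interval 34.9 to 96.8, beside 26.9% of all genes). It had a pooled summit at all 8, beside 57.3% of all genes. Rpn6 (FBgn0028689), which clamps the lid to the core, had the strongest lid peak, of signal 252 (2R, 14752342 to 14752475), in an intron of Rpn6 and 117 bp upstream of 1 of its 2 TSSs. It ranked 1083 in replicate 1 (signal 110) and 879 in replicate 3 (signal 149). Rpn11 (FBgn0028694), the deubiquitinating subunit, had IDR summits at 127 and 333 bp upstream with signals of 186 and 119, whose intervals overlap (2L, 5059725 to 5060108 and 5059931 to 5060314). Its strongest promoter summit ranked 2256 in replicate 1 (signal 78.3) and 1489 in replicate 3 (signal 114). Rpn3 (signal 158), Rpn12 (144), Rpn8, the partner of Rpn11 (141), and Rpn5 (139) also had IDR peaks. Rpn5 ranked 5074 in replicate 1 and 1810 in replicate 3, whereas Rpn3, Rpn12 and Rpn8 ranked between 2390 and 3239 in both. The remaining lid genes had weak peaks. Rpn9 had a pooled signal of 54.1 at a summit 176 bp downstream of its TSS. Its signals were 28.8 in replicate 1 (rank 11737) and 31.9 in replicate 3 (rank 11895), the latter at a summit 142 bp upstream of a TSS. Rpn7 had a pooled signal of 38.9 at 65 bp upstream. Its signals were 14.7 in replicate 1 (rank 29122, 305 bp upstream) and 28.1 in replicate 3 (rank 13965, 85 bp upstream).

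Most of these peaks recurred. Of the 16 members with an IDR promoter peak, 15 had an overlapping peak in both replicate lists, the exception being Prosalpha7. The IDR list was built from these replicates and their pool, so this recurrence was in part fixed by the list. The same share over all IDR promoter peaks is not given, so the count is not read as particular to these genes. Taken singly, the replicate 1 list had a summit within 1 kb at 23 main subunits and at none of the paralogs (58.9% of all genes), and the replicate 3 list at 26 main subunits and at 1 paralog (60.2% of all genes). With each replicate cut to its 4277 peaks of highest signal, 15 main subunits had a summit in each replicate (26.6% of all genes in replicate 1 and 27.5% in replicate 3), and no paralog did. The members differed between replicates by few genes: replicate 3 gained Prosalpha2 and lost Prosalpha7 and Rpt6, and replicate 1 gained Prosalpha3 and lost Prosalpha7 and Rpn5.

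**Figure D3:**
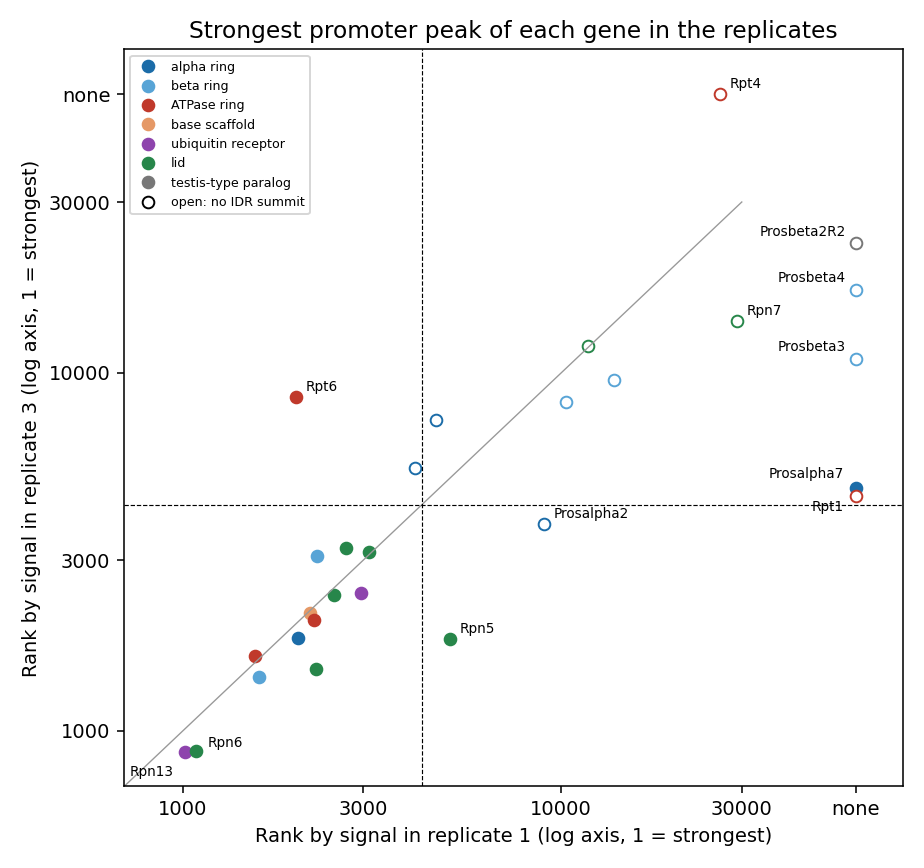
Rank by signal of the strongest promoter peak of each gene in replicate 1 (x) and replicate 3 (y), on log axes with 1 the strongest and genes without a summit placed at none. Filled points have an IDR summit, dashed lines mark rank 4277 and the grey line equal rank, and most filled points lie near that line, with Rpt6, Rpn5 and Prosalpha7 away from it.

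Many of the peaks lay in promoters shared with a neighbouring gene. A TSS of another gene on the opposite strand lay within 1 kb upstream at 22 of the 32 main subunits (68.8%), at 4 of the 16 paralogs (25%) and at 36.2% of all genes. Among genes with such a neighbour, 12 of 22 main subunits (54.5%) and 44.7% of all genes had an IDR summit. Among genes without one the shares were 4 of 10 main subunits (40%) and 16.9% of all genes, and no paralog of either kind had a summit. Under the 1 kb rule, a summit between facing TSSs less than 1 kb apart is counted for both genes. The part of facing neighbours in the difference between main subunits and paralogs was not tested. Of the 16 member peaks, 12 lay within 1 kb of the TSS of another gene (75%, beside 62.0% over all genes with an IDR promoter summit).

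The member's own TSS was the nearest to the summit at 12 of the 16 (75%, beside 69.4% over all genes with an IDR promoter summit), and for the other 4 a neighbour's TSS was nearer. The Prosalpha4 summit was 32 bp from the TSS of kat80, a katanin subunit gene, and 321 bp from its own. The Prosbeta1 summit was 30 bp from the TSS of Rrp42, an RNA exosome gene, and 91 bp from its own. The Rpn5 summit was 50 bp from the TSS of the histone acetyltransferase gene Hat1 and 369 bp from its own. The Rpt5 summit lay between TSSs 42 bp apart, 17 bp from that of RanBP3 and 25 bp from its own. Counting each summit only for the nearest TSS left 12 main subunits with an IDR peak (37.5%, interval 21.1 to 56.3), beside 19.5% of all genes, and no paralog. The members' summits were close to the TSS, with a median distance of 78.5 bp (range 9 to 520) beside 121 bp over all genes with an IDR promoter summit, and 13 of 16 were upstream of the member's own TSS (83.2% over all genes). By the annotation of protein-coding genes 8 of the 16 summits were intergenic (59.9% over all genes with an IDR promoter summit), 5 lay in introns (17.5%) and 3 in the 5' UTR of the member itself (21.5% in the 5' UTR of any gene). The intronic summits include those of Rpn8, inside Slik 520 bp upstream of Rpn8, and Rpt6, inside CG1801.

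**Figure D4:**
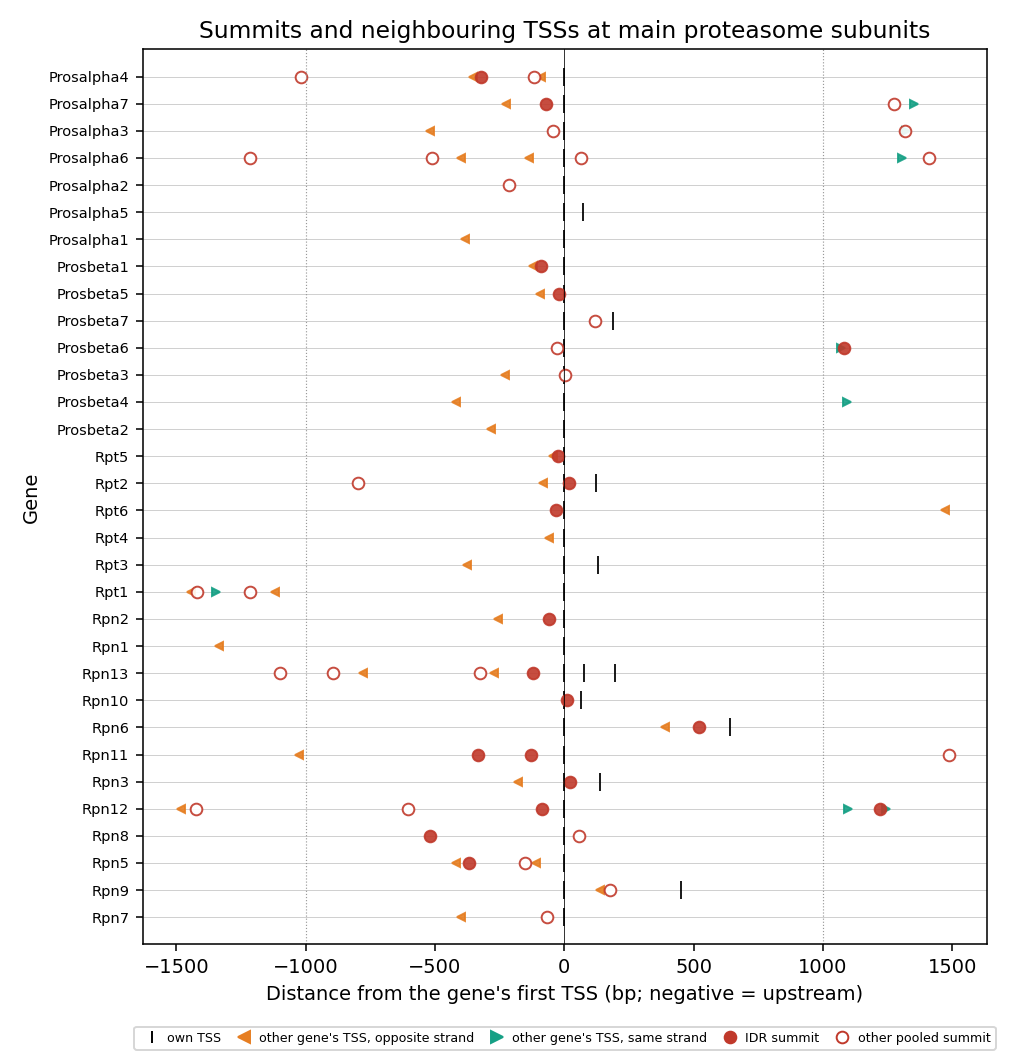
Positions of IDR summits (filled circles), other pooled summits (open circles) and TSSs of neighbouring genes (triangles) relative to the first TSS of each main subunit, in bp, with upstream to the left and dotted lines at 1 kb. Filled circles gather just upstream of the start, at Rpt5, Prosbeta1, Prosbeta5 and Rpn13 between the facing TSSs of the subunit and its neighbour.

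Testis-type paralogs lay far from peaks. The median distance from a paralog's TSS to the nearest pooled summit was 9407 bp (range 341 to 30035), beside 88.0 bp for main subunits (range 1 to 11830) and 387 bp for all genes on arms with peaks. Of the 16 paralogs, 15 had no summit within 1 kb in any of the 4 lists. The exception was Prosbeta2R2, with an intronic pooled summit 341 bp downstream of its TSS (signal 26.1, rank 28086). In replicate 3 its summit lay elsewhere, 137 bp upstream (signal 18.8, rank 23001), and replicate 1 had none within 1 kb. The share of all genes without a summit in any list is not given. Taken singly, the lists had a summit at 26.9% (IDR), 57.3% (pooled), 58.9% (replicate 1) and 60.2% (replicate 3) of all genes. The paralogs correspond to 12 main subunits, of which 5 had an IDR peak (Prosalpha4, Prosbeta5, Rpn12, Rpn13 and Rpt6). Of the 20 main subunits without a paralog 11 had one, beside 26.9% of all genes, and the difference was not tested. Prosalpha4T1 and Prosalpha4T2, paralogs of the alpha subunit with the strongest peak, were 13517 and 23877 bp from a pooled summit. Prosalpha6T, which is known in Drosophila to be needed for male fertility, was 12088 bp away. Rpn13R, paralog of the subunit with the strongest peak, was 9744 bp away. The coding sequence was in 1 exon at 6 of 16 paralogs, at 4 of 32 main subunits and at 20.8% of all genes. Of all genes with 1 coding exon, 18.0% had an IDR summit, as did 1 of those 4 main subunits, Rpn12, and none of those 6 paralogs. The part of exon number in the difference was not tested.

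The site most shared by member promoters was TATCGA, part of the element bound by DREF and BEAF-32. It lay within 50 bp of 6 of the 16 member IDR summits (37.5%: Prosbeta1, Rpn2, Rpn6, Rpn12, Rpt5 and Rpt6), beside 15.7% of the 3098 IDR promoter summits and 13.8% of windows of the same length around all protein-coding TSSs. In promoter windows of 300 bp (250 before and 50 from the gene's first TSS) it was present at 20 of 32 main subunits (62.5%), at 4 of 16 paralogs (25%) and at 27.7% of all genes. In these windows main subunits with and without an IDR summit held it equally often, 10 of 16 each. The windows sit at the first TSS, so the site near the Rpn6 summit, 522 bp downstream of that TSS, is not counted there. The match is a description of letters and not of a bound factor.

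Each homeodomain site searched lay at 1 or 2 of the member summits. TAATTG lay within 50 bp of 2 of the 16 summits, at Rpn11 and Rpn13 (12.5%, beside 8.59% of IDR promoter summits), TAAACG of 2, at Rpn5 and Rpn6 (5.26% of IDR promoter summits) and the homeodomain core TAATTA of 1, at Prosalpha4 (7.36%). In the 300 bp windows TAATTG was at 14 main subunits (43.8%), 4 paralogs (25%) and 25.2% of all genes, and at 8 of the 16 main subunits without an IDR summit. TAATTA was less common there at main subunits than over all genes, at 3 of them (9.38%), 2 paralogs (12.5%) and 20.4% of all genes. TAAACG was at 5 main subunits (15.6%), 3 paralogs (18.8%) and 14.5% of all genes. TGACNNNGC, the site of CncC with Maf-S, which are known to raise proteasome gene transcription under stress, lay at none of the member summits (3.45% of IDR promoter summits) and in 5 of 32 main subunit promoters (8.62% of all genes). These were Prosalpha2, Prosbeta3, Rpn1, Rpn7 and Rpt6, of which Rpt6 alone had an IDR summit. GGTCAC, of the promoter factor M1BP, was at 1 summit, of Prosbeta5 (5.75% of IDR promoter summits), and in 9 main subunit promoters (28.1%, beside 14.6% of all genes). The box sequence TATAAA, bound by the basal factor TBP, lay at 3 summits (16.4% of IDR promoter summits), and CAGGTA (Zelda) at 1 (1.58%). The E-box CACGTG (1.39%) and the GAGA factor site GAGAGA (3.94%) were at none. All sites were searched on both strands. The 101 base windows of member summits had a median GC content of 36.1% (range 23.8 to 52.5), beside 39.6% over all IDR promoter summits.

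Other genes of the pathway also had promoter peaks. Of 16 genes for assembly factors and regulators, 7 had an IDR summit within 1 kb (43.8%, beside the 26.9% of all genes). A pooled summit was at 15, beside 57.3% of all genes. The strongest were at ntc, which encodes an F-box protein needed in sperm formation (signal 279, 3L, 3806473 to 3806577, a summit equally near the TSS of CG32264), at CG12096 (235) and at cnc, the gene of CncC (209, rank 1375). Keap1, the gene of the inhibitor of CncC, had a summit of signal 209 lying 832 bp away, nearer to the TSS of kuk. Pomp, a core particle assembly factor, had a peak of signal 164 that ranked 1052 in replicate 1 and 5576 in replicate 3. Sem1, a small lid subunit outside the naming rule, had a pooled signal of 43.4 and no IDR peak. Of 8 genes for ubiquitin and its delivery, all had a pooled summit (57.3% of all genes) and 4 had an IDR summit (50%, beside 26.9% of all genes). These were RpS27A, a ribosomal protein fused to ubiquitin (signal 305, 59 bp from its TSS and equally near that of Ip259), the polyubiquitin gene Ubi-p63E (277), the deubiquitinase gene Usp5 (247) and the activating enzyme gene Uba1 (198).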

How the data were processed

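The authors deposited 4 peak lists in dm6 coordinates, per the labels and the deposited file descriptions: permissive lists for replicates 1 and 3 and for their pooled alignments, all called against 1 control alignment, and the optimal IDR set made from those 3 lists. Neither peak caller nor IDR threshold is given in the sources used here. Chromatin was sonicated to 200 to 800 bp, per the labels. Each peak has the authors' deposited signal value, used within a list only, and a deposited −log10 q-value that is 4.09 for every IDR peak and so was not used for ranking. Summits are the interval start plus the deposited offset.

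Genes were protein-coding genes of Ensembl release 115 (BDGP6.54) on the arms, with 19630 gene-TSS pairs, and sequence came from the dm6 assembly. The members, gene lists and sites were chosen with earlier results of these data known. All members could be named. Full values were given for the 8 main subunits of strongest peak, those without an IDR peak and the paralog with a pooled peak, and for up to 3 strongest genes of each further list, with other genes named there for their role. Shares have exact Clopper-Pearson 95% intervals, which cover the counting of genes only, since read depth is unknown. No test across genes was run, as genes are not replicates and there was 1 group. Replicate overlap required 1 bp. The summit assignment and site search were tested on simulated data. Alternatives were other TSS windows, nearest-TSS assignment, other lists and thresholds, each replicate alone, other overlap rules and site windows. Python 3.11.15, numpy 2.4.6, pandas 2.3.3, scipy 1.17.1, Biopython 1.88 and matplotlib 3.10.9 were used.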

Additional observations from a re-analysis of the deposited data

How the results depend on the processing

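The count of 16 main subunits with an IDR promoter summit was 12 with the nearest TSS alone (19.5% of all genes) and 24 with all pooled peaks (57.3%). For TSS windows of 200 bp, 500 bp and 2 kb it was 13, 15 and 17 (19.4%, 24.1% and 31.5% of all genes). It was 8 with only the 2138 IDR peaks of highest signal (16.4% of all genes, against 26.9% with the whole IDR list). Without replicate 1 or without replicate 3 it was 15 each time (27.5% and 26.6% of all genes). The count of 0 paralogs was 1, Prosbeta2R2, with a 2 kb window and with all pooled peaks, and 0 under the other 6 alternatives, which include leaving out either replicate. Recurrence in both replicates held for 15 of 16 members at 1 bp overlap, 15 with summits within 100 bp, 13 among the strongest peaks and 11 with 50% mutual overlap. These counts have no share over all IDR promoter peaks beside them. The median member signal of 171 was 159 to 184 under its alternatives. TATCGA near the summit, at 6 members, was at 10 with a 100 bp window and at 3 with a 25 bp window. A wider window can only add matches, and the share over all IDR promoter summits is not given for these windows. No paired analysis was possible because the series has 1 group. With 2 replicates, unknown depth and one shared control alignment, the spread between embryos could not be estimated.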
